A study of Mus musculus with 12 samples.

Results

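The forkhead (Fox) genes encode transcription factors that bind DNA through a winged-helix domain, the forkhead domain, and are sorted into subfamilies by letter. They were taken as every row of the count table whose symbol was Fox, a letter from a to s, a number and at most 1 further letter, which gave 45 of 24470 genes. A filter on low counts (edgeR's filterByExpr) kept 29 of the 45 among 15572 genes kept in all. The 45 were taken by symbol alone, but the filter used counts, and the family was chosen with earlier results of these data known.

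Counts came from testes of mouse embryos at E14.5, in 6 control pools (Nr2f2 f/f) and 6 cKO pools (Wt1 CreER x Nr2f2 f/f), each of 3 testes and each giving 1 library. Pregnant females had received tamoxifen on E11.5 and E12.5. Both groups carried the floxed Nr2f2 allele, which has a LacZ cassette that is read after deletion, and the Wt1-CreER driver, itself an insertion into Wt1, was in cKO embryos only, so driver and deletion cannot be told apart. No source used here says whether pools of a group came from separate litters, so p-values measure the spread between these pools.

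Several forkhead factors have textbook roles near the cells this deletion addresses. FOXC2 and FOXF1 act in mesenchyme and vessels, FOXS1 marks pericytes and other perivascular cells, and FOXL2 maintains the granulosa fate of the ovary. FOXO factors are kept out of the nucleus by AKT when PI3K signalling is on and otherwise turn on genes of cell cycle arrest and apoptosis. FOXM1 drives genes of the G2 and M phases, and FOXJ1 the genes of motile cilia.

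Total counts ran from 7044531 to 59404778 per library. Nr2f2, the targeted gene, lay between 162.5 and 185.9 CPM (counts in every 1000000 counts of a library, scaled by edgeR's TMM factors) in control pools and between 50.2 and 118.6 CPM in cKO pools. Its log2 fold change, cKO over control throughout, was -1.21 (standard error, SE, 0.16, with edgeR adjusted p = 0.000548), and the pools did not overlap. The 9 Sertoli cell genes listed, which define the cords of the testis, summed to at least 1082 CPM in every library, and none was called. However, 4 libraries stood apart from the other 8. Xist, which is transcribed from the inactive X chromosome in XX cells, had 891 CPM in control replicate 1 and 304, 507 and 433 CPM in cKO replicates 3, 5 and 6, against 5.15 to 7.68 CPM elsewhere. The Y-linked gene Uty had 29.2 to 39.3 CPM in these 4 libraries and 47.1 to 80.2 CPM in the others. All 12 libraries are labelled testis. The main results are therefore given for 12 libraries and for the 8 with Xist under 100 CPM (5 control and 3 cKO pools). Fits with Xist as a covariate and without each library in turn were also made.

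Foxl2, Foxn2 and Foxr1 were the forkhead genes reported here whose CPM did not overlap between these 4 libraries and the other 8. The share of all genes with such a split was not counted, so the split is not read as particular to them. The sequence before the start of Foxl2 is shown because a divergent noncoding gene, Foxl2os, begins close by. Foxl2 (Entrez Gene 26927) lies at chr9:98955607-98958126 of mm10 on the plus strand, and Foxl2os, on the minus strand, starts 296 bp before it. The 250 bases before Foxl2, chr9:98955357-98955606 on the plus strand, fall within this gap and were taken from RefSeq (GRCm38.p6), with the GC box GGGCGG in capitals.
Foxl2: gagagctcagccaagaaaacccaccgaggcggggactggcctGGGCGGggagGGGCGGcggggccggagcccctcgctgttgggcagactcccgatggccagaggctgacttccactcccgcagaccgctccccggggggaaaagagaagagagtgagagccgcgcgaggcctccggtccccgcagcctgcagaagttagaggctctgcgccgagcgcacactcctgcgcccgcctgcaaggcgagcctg
The window had 70.8% G and C, 22 CpG dinucleotides and 2 GC boxes. It held neither TGTTTAC, a forkhead core motif, nor AGGTCA, the half-site bound by nuclear receptors such as NR2F2, on either strand.

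Windows of the same kind, at the first listed start of each gene, were matched by Entrez Gene number for 29 of the 45 forkhead genes, 15 of them among the 29 kept. These promoters were rich in G and C, with a median of 62.8% against 52% over 27018 promoters, and in CpG, with a median of 16 against 6. GGGCGG, searched on both strands, occurred in 20 of 29 (69% against 32.9% of all promoters). AGGTCA occurred in 3 (10.3% against 13.8%), those of Foxe3, Foxi2 and Foxk2. TGTTTAC occurred in 1, that of Foxa1 (3.45% against 3.09%). A match to letters is not a bound site, and the absence of one says only that the letters are not in this window. No window was available for Foxq1, Foxs1, Foxc2, Foxf1, Foxp2 or Foxm1, so none of these motifs was searched for there.

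In the comparison of cKO with control testes, which asks how loss of NR2F2 altered the testis, 1 forkhead gene fell and 1 rose. Foxq1 was lower and Foxs1 higher in cKO testes, so 2 of 29 (6.9%) passed the threshold (edgeR's quasi-likelihood test, adjusted p under 0.05 over all genes). Over all genes tested 8.13% were called, 4.85% lower and 3.28% higher, so the forkhead share was near the background. The median log2 fold change of the 29 was 0.05, with 18 above 0, against 0.003 over all genes, and 21 of the 29 (72.4%) lay within 0.2 of 0, against 61.3% of all genes. Unadjusted p was under 0.05 for 5 of 29 (17.2%), namely Foxq1, Foxs1, Foxc2, Foxf1 and Foxp2, against 25.2% of all genes. In the 8 libraries, 3 of 30 were called, Foxq1 lower and Foxs1 and Foxl2 higher, against 7.08% of all genes (3.39% lower and 3.68% higher). DESeq2, run on the 12 libraries, called 5 of 32 (15.6%, against 11.6% of all genes it tested, 6.27% lower and 5.28% higher), adding Foxc2, Foxf1 and Foxp2 as lower.

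**Figure D1:**
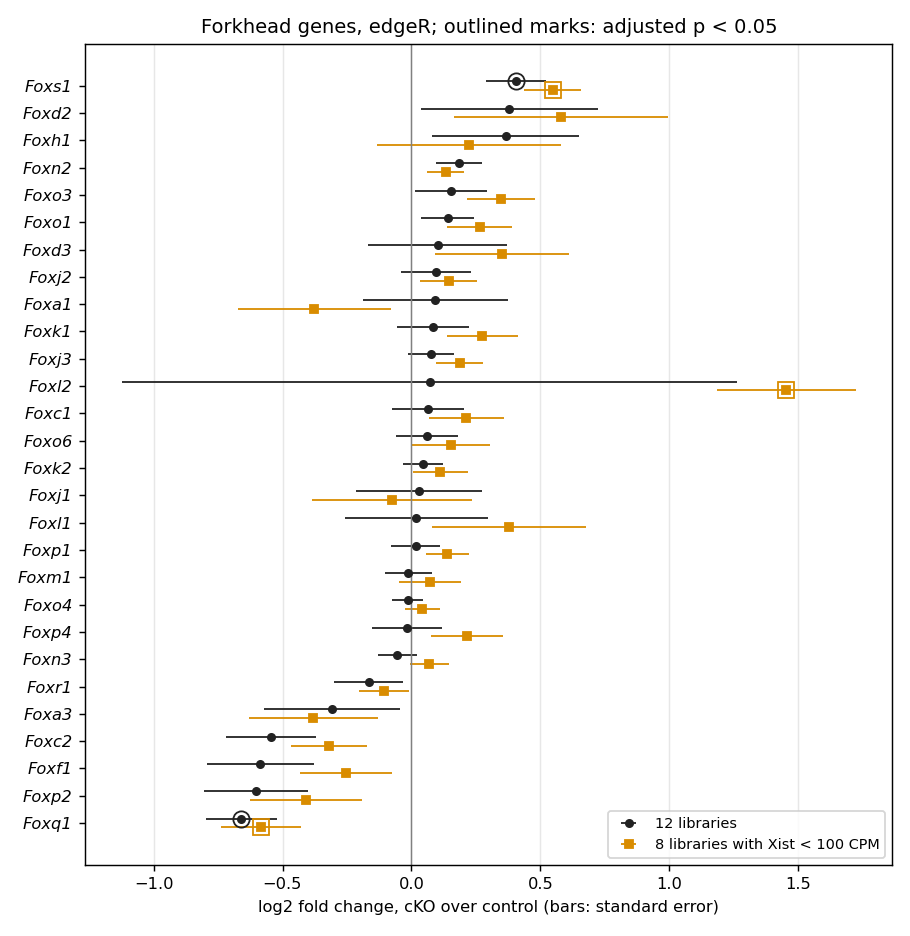
Log2 fold change (cKO over control, x axis) of 28 of the forkhead genes kept, with standard errors as bars, from edgeR on 12 libraries (black circles) and on the 8 libraries with Xist under 100 CPM (orange squares). Larger outlines mark adjusted p under 0.05, which Foxq1 and Foxs1 have in both and Foxl2 in the 8 libraries only.

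Levels between forkhead genes were compared as CPM per kilobase of the longest transcript, in control pools. Foxo4, a FOXO factor on the X chromosome, had the highest level per kb with 24.1 ± 1.07 (mean ± SD, n = 6), followed by Foxp4, a repressor of the FOXP group, with 23.6 ± 4.32. These 2 did not differ beyond their spread. Foxm1 followed with 16.9 ± 2.45 and Foxk2, a close relative of Foxk1, with 16.7 ± 2.03, again within their spread. Foxj3 (14.3 ± 2.24), Foxr1 (14.1 ± 2.73), Foxo1 (12.7 ± 1.94) and Foxs1 (10.7 ± 1.38) completed the 8 genes over 10 CPM per kb, and the ranges of neighbours in this order overlapped. Some levels depend on the length used. Over the merged exons of all transcripts, Foxj3 had 6.22, Foxp1 3.97 and Foxp2 0.63 CPM per kb, in place of 14.3, 7.60 and 1.52. Foxk1 (9.64), Foxj2 (9.08), Foxo3 (8.54), Foxn2 (7.71), Foxp1 (7.60), Foxo6 (5.68) and Foxn3 (5.03) came next, again with overlapping ranges. Below these, and without overlap with Foxn3, the levels per kb dropped to Foxc2 with 2.31, Foxf1 with 2.00, Foxp2 with 1.52, Foxc1 with 1.38 and Foxh1 with 1.26. The mean of Foxl2, 2.52 CPM per kb, was set by control replicate 1, and the lowest control pool had 0.07. Genes under 1 CPM per kb ran from Foxq1 with 0.98 (1.69 over the shorter deposited interval) through Foxa3, Foxd3, Foxj1, Foxl1 and Foxa1 to Foxd2 with 0.18.

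**Figure D2:**
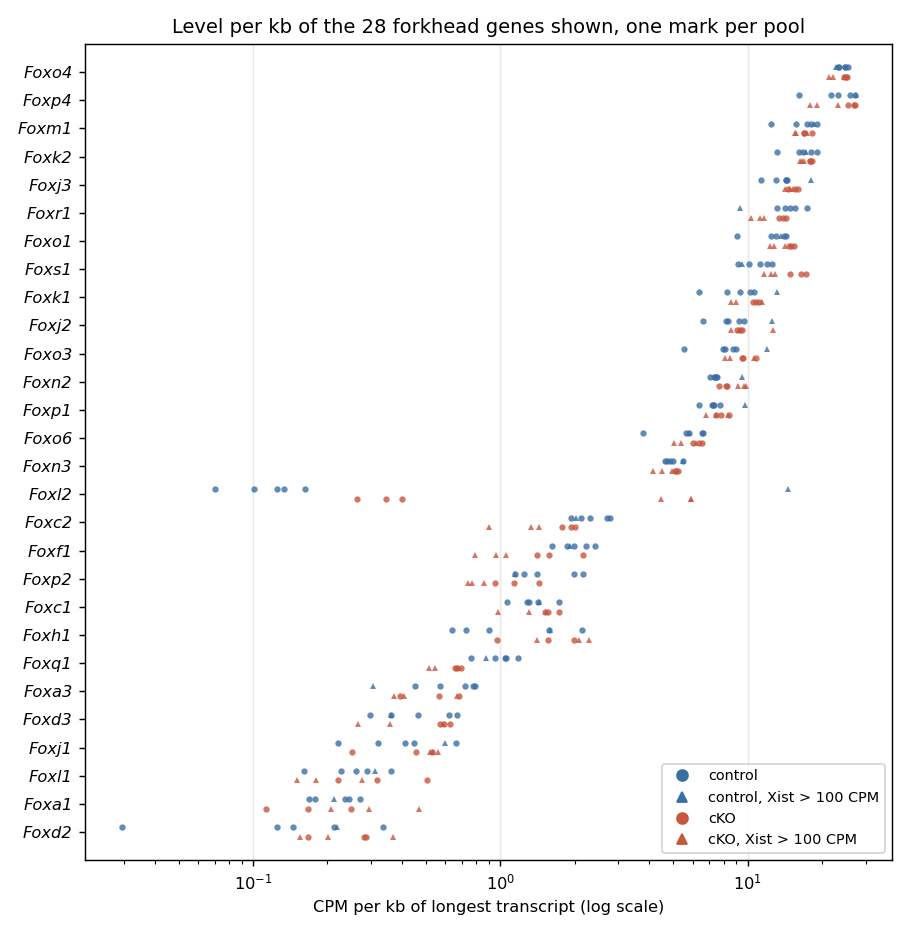
Level of 28 of the forkhead genes kept, in CPM per kb of the longest transcript on a log axis, with 1 mark per pool (blue control, red cKO, triangles for Xist over 100 CPM) and genes in order of their control mean. Foxo4 and Foxp4 lie highest, and the pools of Foxl2 fall into a low cluster and a high one made up of the triangles.

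The other 16 forkhead genes did not pass the filter in 12 libraries and were low or absent. Foxl3 had no read in any library, and a count of 0 allows up to 3 counts, or 0.426 CPM in the shallowest library and 0.0505 CPM in the deepest. The highest count in any library was 20 for Foxd1, 17 for Foxd4, 16 for Foxr2, 12 for Foxa2 and Foxi3, 8 for Foxf2, 7 for Foxp3, 6 for Foxe1 and 5 for Foxb1 and Foxn4. It was 2 for Foxi1 and 1 for Foxb2, Foxe3, Foxi2 and Foxn1. Foxp3 defines regulatory T cells and Foxn1 the thymic epithelium. Of 7 T cell markers in the table, 1 passed the filter, and the markers summed to at most 3.67 CPM in any library. Foxd1 marks stromal progenitors of the kidney, and Foxi1 marks acid-secreting epithelial cells. Foxd1 passed the filter only when the 8 libraries were taken alone.

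Foxq1, known for promoting epithelial-mesenchymal transition, was the forkhead gene that fell. It lies at chr13:31558170-31560976 (plus strand), and its count ranged from 24 to 202 per library. Control pools had 3.67 CPM in the lowest, 4.85 in the median and 5.70 in the highest, and cKO pools 2.49, 3.21 and 3.37. Each of the 6 cKO pools fell short of the lowest control pool, as in 3.13% of all genes. No other forkhead gene had groups without overlap, against 5.52% of all genes in either direction and 2.39% higher in cKO. The log2 fold change was -0.66 (SE 0.14, edgeR adjusted p = 0.0087), a level of 0.633 of control. With the 8 libraries alone it was -0.58 (SE 0.15, edgeR adjusted p = 0.0446), and the 5 control pools (3.67 to 5.70 CPM) again did not overlap the 3 cKO pools (3.17 to 3.37 CPM), as in 14.6% of all genes for a lower level in cKO. Foxq1 was called under every alternative tried.

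Foxq1 shares a cluster on chromosome 13 with Foxf2, 64.8 kb away, and Foxc1, a further 175 kb on. Foxf2 did not pass the filter. Foxc1, a factor of mesenchyme, eye and vessel development, had 8.04 ± 1.30 CPM (mean ± SD, n = 6) in control and 8.39 ± 1.54 CPM (mean ± SD, n = 6) in cKO testes. Its log2 fold change of 0.06 (95% interval -0.24 to 0.36, edgeR adjusted p = 0.802) did not pass the threshold. The difference between Foxq1 and Foxc1 in their response was not tested.

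Foxs1 was the forkhead gene that rose. It lies at chr2:152931898-152933208 (minus strand), and each library held 83 to 914 of its reads. Control pools had 12.0 CPM in the lowest, 13.9 in the median and 16.4 in the highest, and cKO pools 15.3, 18.1 and 22.6. The groups overlapped, with 4 of 6 cKO pools above every control pool. The log2 fold change was 0.41 (SE 0.12, edgeR adjusted p = 0.0467), a 1.32-fold level. The cKO pools split by Xist. Those with Xist under 100 CPM had 19.4 to 22.6 CPM and those with Xist over it 15.3 to 16.9 CPM. Over the 8 libraries the log2 fold change was 0.55 (SE 0.11, edgeR adjusted p = 0.0148), and the 5 control pools did not overlap the 3 cKO pools, as in 13.6% of all genes for a higher level in cKO. The 12-library call sat at the threshold and was lost in 9 of 12 fits with a library omitted, where adjusted p reached 0.107. It held without control replicate 1, control replicate 2 or cKO replicate 6.

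Pericyte markers were read beside Foxs1. Of 10 listed, 9 were tested, 2 fell and none rose, against 4.85% of all genes lower and 3.28% higher. The median log2 fold change was -0.33, against 0.003 over all genes. Those that fell were Kcnj8, a potassium channel of pericytes, with -0.81 (SE 0.20, edgeR adjusted p = 0.023), and Lgi1 with -0.57 (SE 0.15, edgeR adjusted p = 0.0342). Kcnj8 lost its call without control replicate 6, cKO replicate 1 or cKO replicate 4 (adjusted p at most 0.0572), and Lgi1 in 9 of 12 such fits (at most 0.0777). In the 8 libraries Kcnj8 was called (adjusted p = 0.0345) and Lgi1 was not (-0.59, adjusted p = 0.0775). The markers together summed to 413 to 717 CPM in the controls and 360 to 566 CPM in cKO pools, and in the 8 libraries their median log2 fold change was -0.009. In whole testes, fewer cells of a type and less RNA per cell cannot be told apart. The part of pericytes in the rise of Foxs1 was not tested.

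**Figure D3:**
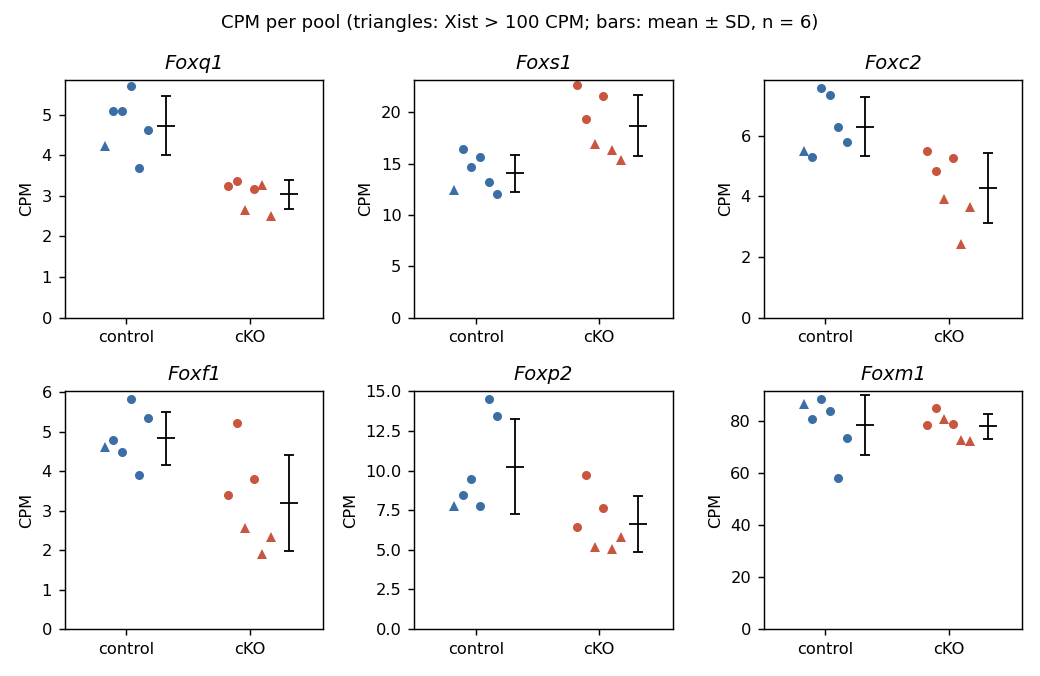
CPM of Foxq1, Foxs1, Foxc2, Foxf1, Foxp2 and Foxm1 in each pool (linear y axis from 0), control in blue and cKO in red, triangles for pools with Xist over 100 CPM, and black bars for mean ± SD over 6 pools. The cKO pools of Foxq1 all lie under the control pools, and in Foxs1, Foxc2, Foxf1 and Foxp2 the cKO triangles lie under the cKO circles.

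Foxc2, Foxf1 and Foxp2 were lower in cKO testes by size but did not pass the threshold in edgeR. Foxc2, needed for lymphatic and cardiovascular development, lies at chr8:121116171-121118895 and Foxf1, a mesenchymal target of hedgehog signalling, at chr8:121084386-121088154, 28.0 kb apart. Foxc2 had 5.29, 6.03 and 7.59 CPM (lowest, median and highest) in control pools and 2.44, 4.37 and 5.49 CPM in cKO pools. The log2 fold change was -0.55 (SE 0.17, edgeR adjusted p = 0.07). Foxf1 had 3.90, 4.71 and 5.84 CPM in the controls and 1.90, 2.97 and 5.22 CPM in cKO pools. Its log2 fold change was -0.59 (SE 0.21, edgeR adjusted p = 0.101). For both, 5 of 6 cKO pools lay under every control pool. DESeq2 gave adjusted p = 0.0232 for Foxc2 and 0.0425 for Foxf1. In edgeR, Foxc2 passed without control replicate 1 (adjusted p = 0.0367) and Foxf1 without cKO replicate 2 (adjusted p = 0.0208).

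The cKO pools with Xist over 100 CPM held the lowest values of both genes. Foxc2 had 2.44 to 3.91 CPM in them and 4.83 to 5.49 CPM in the other 3 cKO pools, and Foxf1 1.90 to 2.56 CPM and 3.39 to 5.22 CPM. In the 8 libraries the log2 fold change of Foxc2 was -0.32 (edgeR adjusted p = 0.177) and that of Foxf1 -0.25 (edgeR adjusted p = 0.351).

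The neighbour Foxl1, a factor of gut and other mesenchyme 8.79 kb from Foxc2, had 0.72 ± 0.19 CPM in the controls and 0.74 ± 0.35 CPM in cKO testes (mean ± SD, n = 6). Foxl1 had a log2 fold change of 0.02, with a 95% interval from -0.58 to 0.61 at 3 to 38 reads per library. Endothelial markers, read beside Foxc2, had a median log2 fold change of -0.06 over 8 tested, of which 1 fell and none rose, against 4.85% and 3.28% of all genes. Interstitial progenitor markers had a median of -0.23, with 3 of 8 lower, Nr2f2 among them, and 1 higher, beside the same shares of all genes.

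Foxp2, a repressor known from the developing brain and lung, spans chr6:14901349-15441977. Control pools had 7.77 CPM in the lowest, 8.97 in the median and 14.54 in the highest, and cKO pools 5.02, 6.11 and 9.72. The control pools were themselves uneven, with replicates 5 and 6 at 14.54 and 13.4 CPM and the other 4 at 9.48 CPM or less. The log2 fold change was -0.60 (SE 0.20, edgeR adjusted p = 0.081), with 5 of 6 cKO pools below every control pool, and DESeq2 gave adjusted p = 0.0318. In edgeR it passed without control replicate 1 (adjusted p = 0.0349) or cKO replicate 2 (adjusted p = 0.0333). The cKO pools with high Xist had 5.02 to 5.79 CPM and the other 3 cKO pools 6.43 to 9.72 CPM. Among the 8 libraries the log2 fold change was -0.41 (SE 0.22, edgeR adjusted p = 0.236). The related Foxp1 had 54.6 ± 8.16 CPM in the controls and 55.3 ± 4.47 CPM in cKO testes (mean ± SD, n = 6), a log2 fold change of 0.02, and Foxp4 94.3 ± 17.3 and 93.1 ± 15.9 CPM. Foxp4 ran from 64.3 through 97.99 to 109.4 CPM (lowest, median, highest) in control and from 71.4 through 97.2 to 108.3 CPM in cKO pools, overlapping throughout. Its log2 fold change was -0.02 (SE 0.14, 95% interval -0.31 to 0.27, edgeR adjusted p = 0.948), and 0.22 (SE 0.14, edgeR adjusted p = 0.314) in the 8 libraries, where its direction turned.

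Foxl2 had high values in 4 pools and low values in 8. Control replicate 1 had 47.2 CPM (1745 reads), and cKO replicates 3, 5 and 6 had 19.3, 19.1 and 14.6 CPM. The other 5 control pools had 0.23 to 0.53 CPM, and cKO replicates 1, 2 and 4 had 1.30, 0.86 and 1.13 CPM. High values thus occurred in the 4 libraries with high Xist, whichever their genotype. With 12 libraries the log2 fold change was 0.07 with an SE of 1.19 (95% interval -2.48 to 2.62, edgeR adjusted p = 0.979). With the 8 libraries alone it was 1.45 (SE 0.27, edgeR adjusted p = 0.00958), and the 3 cKO pools lay above the 5 control pools. That difference rests on 13, 36 and 38 reads in cKO pools and 3 to 21 reads in control pools. Leaving out control replicate 1 alone gave 4.49 (edgeR adjusted p = 0.00841).

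The divergent gene Foxl2os followed the same split. It had 39.5 CPM in control replicate 1, 8.18, 8.68 and 7.23 CPM in cKO replicates 3, 5 and 6, 0.23 to 0.80 CPM in the other control pools and 0.66 to 1.30 CPM in the other cKO pools. In the 8 libraries its log2 fold change was 0.96 (SE 0.38, edgeR adjusted p = 0.132), with overlapping pools, and without control replicate 1 alone it was 3.20 (edgeR adjusted p = 0.0137). The authors counted by strand, and both genes do not overlap.

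**Figure D4:**
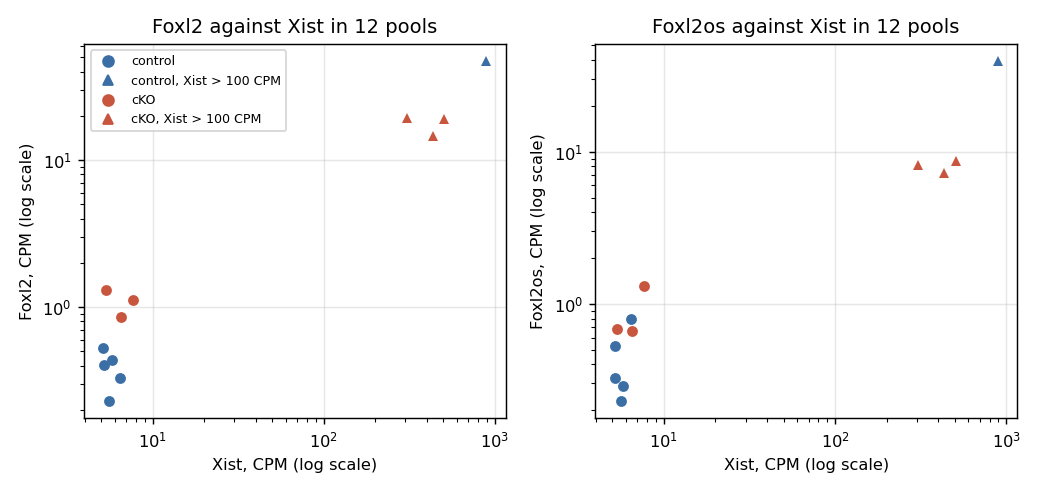
Foxl2 (left) and Foxl2os (right) against Xist in each of 12 pools, all axes CPM on a log scale, control in blue and cKO in red, triangles for Xist over 100 CPM. The 4 triangles, 1 of control and 3 of cKO, hold the high values of both genes, and among the circles the 3 cKO pools lie above the 5 control pools for Foxl2.

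Genes known to work with or beside FOXL2 in pre-granulosa cells, the supporting cells of the fetal ovary, were read from a list of 12. Of these 11 were tested, 1 fell and none rose in 12 libraries, against 4.85% of all genes lower and 3.28% higher, and the median log2 fold change was 0.26. Their sum was 145 to 188 CPM in the 8 libraries and 241 to 433 CPM in the 4 with high Xist. Fst (follistatin), which binds activin, had 65.7 CPM in control replicate 1, 19.7 to 46.7 CPM in cKO replicates 3, 5 and 6, 2.82 to 3.33 CPM in the other control pools and 4.33 to 5.39 CPM in the other cKO pools. Without the 4 libraries of high Xist, 2 of 11 tested rose and 1 fell, against 3.68% of all genes higher and 3.39% lower. Fst rose by 0.62 on the log2 scale (with SE 0.14, edgeR adjusted p = 0.0216). Bmp2, a BMP ligand, rose by 0.67 (SE 0.17, edgeR adjusted p = 0.0379). Genes of the list that were not called in these 8 libraries had log2 fold changes from -0.008 to 0.51. Wnt4, a WNT ligand of the ovarian pathway that interstitial and mesonephric cells also express, fell in both sets. It had 51.8 to 110.0 CPM in the controls and 26.0 to 49.5 CPM in cKO pools, without overlap, and a log2 fold change of -0.77 (SE 0.19, edgeR adjusted p = 0.0249), or -0.84 (edgeR adjusted p = 0.00686) in the 8 libraries. Without cKO replicate 1 or 4 the call of Wnt4 was lost (adjusted p = 0.0574 and 0.051). Without control replicate 1 alone, Fst had a log2 fold change of 2.69 and Bmp2 of 1.12, both called. The part of ovarian-type cells in these levels was not tested.

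The FOXO genes were abundant and none was called. Foxo1 had 110.5 ± 16.8 CPM in the controls and 121.9 ± 10.9 CPM in cKO testes (mean ± SD, n = 6), a log2 fold change of 0.14 (SE 0.10, edgeR adjusted p = 0.402). Foxo3 had 58.5 ± 14.2 and 65.2 ± 7.52 CPM (mean ± SD, n = 6), a log2 fold change of 0.15 (SE 0.14, edgeR adjusted p = 0.508). Among the 8 libraries Foxo1, Foxo3, Foxj3, Foxn2, Foxs1 and Foxl2 were higher in every cKO than in every control pool, 6 of 30 (20%) against 13.6% of all genes, and with Foxq1, lower throughout, 7 of 30 against 28.2%, but of these Foxo1, Foxo3, Foxj3 and Foxn2 did not pass the test. Foxo4 was the steadiest of the 4. Its pools ran from 72.1 through 76.1 to 80.3 CPM in the controls and from 67.2 through 77.8 to 80.0 CPM in cKO (lowest, median, highest), with a log2 fold change of -0.01 (SE 0.06, 95% interval -0.14 to 0.12, edgeR adjusted p = 0.904), which turned to 0.04 in the 8 libraries. Foxo6, known from the brain, had 14.9 ± 2.66 and 15.5 ± 1.54 CPM (mean ± SD, n = 6), a log2 fold change of 0.06.

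Among genes that FOXO factors are known to activate, 3 of 26 tested rose and none fell, against 3.28% of all genes higher and 4.85% lower, and the median log2 fold change was -0.08, with 9 above 0. Cdkn1a, the cell cycle inhibitor p21 and also a p53 target, rose in all 6 cKO pools over every control pool, from 7.99 ± 0.71 to 23.8 ± 7.35 CPM (mean ± SD, n = 6). The increase was 1.56 on the log2 scale (SE 0.18, edgeR adjusted p = 0.000174). Bcl2l11, the pro-apoptotic protein BIM, rose from 33.3 ± 2.49 to 48.5 ± 5.42 CPM (mean ± SD, n = 6), by 0.54 on the log2 scale (with SE 0.08, edgeR adjusted p = 0.00118). Sesn3, a stress-induced inhibitor of mTORC1, rose from 48.2 ± 7.16 to 61.0 ± 1.90 CPM (mean ± SD, n = 6), by 0.33 (SE 0.09, edgeR adjusted p = 0.0352), and its adjusted p was 0.0533 in the 8 libraries and over 0.05 in 8 of 12 fits without 1 library. Cdkn1a and Bcl2l11 were called in the 8 libraries as well. No cKO pool overlapped a control pool in any of these 3 genes, as in 2.39% of all genes for a higher level in cKO.

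Genes of the PI3K and AKT pathway, which restrains FOXO factors, were read from a list of 20. All were tested, 2 rose and none fell, against 3.28% of all genes higher and 4.85% lower, and the median log2 fold change was 0.02. Pik3cb, a catalytic subunit of PI3K, rose by 0.33 (SE 0.09, edgeR adjusted p = 0.0298). It was not called in the 8 libraries, where its adjusted p was 0.114, and lost its call in 8 of 12 fits without 1 library.

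Foxm1, the proliferation factor, had 57.9 CPM in the lowest, 82.3 in the median and 88.5 in the highest control pool, and 72.4, 78.6 and 85.1 in the cKO pools. All cKO pools lay within the control range. The log2 fold change was -0.01 (SE 0.09, 95% interval -0.21 to 0.19, edgeR adjusted p = 0.954), and 0.07 (SE 0.12) in the 8 libraries. Its deposited interval overlaps Tex52 over 377 bp on the same strand. The authors' featureCounts call names no option for counting reads that overlap several genes, and by default the tool leaves such reads unassigned. Of 20 genes that FOXM1 is known to activate, 3 fell and none rose, against 4.85% of all genes lower and 3.28% higher, and the median log2 fold change was -0.18, with 5 above 0. Birc5 (survivin) fell from 68.1 ± 9.01 to 52.4 ± 1.196 CPM (mean ± SD, n = 6), by 0.37 on the log2 scale (with SE 0.08, edgeR adjusted p = 0.0115), with no overlap between pools. Cdc25b, a phosphatase that activates CDK1, had a log2 fold change of -0.29 (SE 0.07, edgeR adjusted p = 0.0218), and Cdk1, the kinase of mitotic entry, of -0.40 (SE 0.12, edgeR adjusted p = 0.0492). In the 8 libraries Birc5 and Cdk1 were called and Cdc25b was not (edgeR adjusted p = 0.0941). With 1 library left out, Birc5 kept its call in all 12 fits, Cdc25b lost it in 4 and Cdk1 in 11.

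Foxj1 was low in both groups, with 1.16 ± 0.43 CPM in the controls and 1.25 ± 0.30 CPM in cKO testes (mean ± SD, n = 6) and a log2 fold change of 0.03 (SE 0.24). Of 16 motile cilium genes tested, 1 fell and 1 rose, against 4.85% and 3.28% of all genes, with a median of -0.28. Dnah9, a dynein heavy chain, rose from 2.62 ± 0.43 to 5.43 ± 0.91 CPM (mean ± SD, n = 6), by 1.03 (SE 0.15, edgeR adjusted p = 0.000899, and 0.00217 in the 8 libraries), and no cKO pool overlapped a control pool. Tekt2, a tektin of axonemes, had a log2 fold change of -0.48 (SE 0.12, edgeR adjusted p = 0.0252, and 0.0757 in the 8 libraries), and lost its call in 4 of 12 fits without 1 library. Genes of the hedgehog response, which includes Foxf1 and Foxl1 in other tissues, had a median of -0.10 over 9 tested, of which none fell and 1 rose, against 4.85% and 3.28% of all genes. Hhip, the hedgehog-binding inhibitor, rose by 0.40 (SE 0.12, edgeR adjusted p = 0.0492), and by 0.60 (SE 0.09, edgeR adjusted p = 0.00376) in the 8 libraries. Its 12-library call was lost in 9 of 12 fits without 1 library.

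The remaining broadly expressed members did not pass the test. Foxk1 and Foxk2, which repress genes of autophagy when nutrients are plentiful, had 71.7 ± 17.0 and 84.1 ± 10.2 CPM in the controls and 76.2 ± 8.81 and 86.9 ± 3.90 CPM in cKO testes (mean ± SD, n = 6). Foxj2 had 48.0 ± 10.5 and 51.4 ± 7.92 CPM and Foxj3 68.2 ± 10.7 and 72.1 ± 3.01 CPM (mean ± SD, n = 6, control then cKO). Their log2 fold changes were 0.08 for Foxk1, 0.05 for Foxk2, 0.09 for Foxj2 and 0.08 for Foxj3. Foxn2 had 39.2 ± 4.57 and 44.7 ± 4.55 CPM (mean ± SD, n = 6), with a log2 fold change of 0.18 (95% interval -0.005 to 0.37, edgeR adjusted p = 0.207, or 0.03 without control replicate 1). It was higher where Xist was high, with 48.3 CPM in control replicate 1 and 46.5 to 49.9 CPM in cKO replicates 3, 5 and 6, against 35.7 to 38.4 CPM in the other control and 38.8 to 42.1 CPM in the other cKO pools. The log2 fold change of Foxn2 in the 8 libraries was 0.13 (SE 0.07, edgeR adjusted p = 0.235). The related Foxn3, known from cell cycle checkpoints, had 38.7 ± 2.85 and 37.2 ± 3.33 CPM (mean ± SD, n = 6) and a log2 fold change of -0.05. Foxr1 had 27.7 ± 5.38 and 24.5 ± 3.17 CPM (mean ± SD, n = 6), with a log2 fold change of -0.17 (SE 0.13, edgeR adjusted p = 0.449). Foxr1 was lower where Xist was high, with 18.3 CPM in control replicate 1 and 20.3 to 23.0 CPM in the 3 cKO pools, against 25.8 to 34.2 CPM in the other control and 26.2 to 28.1 CPM in the other cKO pools.

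Members under 3 CPM gave wide intervals. Foxh1, a partner of SMAD proteins in Nodal signalling, had 1.72 ± 0.81 CPM in the controls and 2.34 ± 0.67 CPM in cKO testes (mean ± SD, n = 6), a log2 fold change of 0.37 (95% interval -0.24 to 0.98). Foxd3, which marks neural crest and pluripotent cells, had 1.08 ± 0.35 and 1.16 ± 0.34 CPM (mean ± SD, n = 6), and a log2 fold change of 0.10 (95% interval -0.48 to 0.68). Foxd2 had 0.46 ± 0.27 and 0.63 ± 0.21 CPM (mean ± SD, n = 6), with a log2 fold change of 0.38 (95% interval -0.36 to 1.11), and Foxd2os, which begins 390 bp away, had a difference of 0.42 on the log2 scale (SE 0.29, edgeR adjusted p = 0.434). Foxa1 and Foxa3, pioneer factors of endoderm, had 0.70 ± 0.13 and 1.23 ± 0.40 CPM in the controls and 0.80 ± 0.40 and 1.05 ± 0.29 CPM in cKO testes (mean ± SD, n = 6), and their log2 fold changes were 0.09 and -0.31.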

How the data were processed

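The authors trimmed read pairs (Trim Galore 0.6.7), aligned them to mm10 (STAR 2.5), assigned them by strand to RefSeq genes (featureCounts, Subread 1.5.0-p1) and deposited raw counts of 24470 genes in 12 libraries without filtering. All 12 columns were used and grouped by genotype label.

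The analysis used edgeR 4.0.16 in R 4.3.3 (TMM scaling, filterByExpr at 10 counts and 15 in total, glmQLFit and glmQLFTest with genotype only, Benjamini-Hochberg adjustment over 15572 genes, threshold 0.05). The standard error is the log2 fold change divided by the square root of F, and 95% intervals use the t distribution of the fit. Levels per kb use the longest GENCODE M21 transcript. Promoter windows are RefSeq's, and those with undetermined bases were left out. The tests were tested on simulated data with known changes.

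Forkhead genes were named at least once, and part of the results covered here is not reported. Pool values and full statistics were given for genes called in edgeR, in DESeq2 only or in the 8 libraries only, for Foxl2 and Foxm1, and for the 3 with the highest level per kb. Up to 4 called genes were named per list. Fst, Bmp2 and Foxl2os were named outside this rule after their values were seen. The forkhead genes and the lists (FOXO, FOXM1 and FOXJ1 targets, PI3K and AKT, hedgehog, FOXL2 partners, pericyte, endothelial, interstitial progenitor, Sertoli and T cell markers) were chosen with earlier results of these data known, so no list is independent evidence and none was given a set test.

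Alternatives were median-of-ratios and upper-quartile scaling, no filter, a minimum count of 50, DESeq2 1.42.0 (the authors' tool), limma 3.58.1 voom with and without quality weights, a replicate term, leaving out each library, dropping the 4 libraries above 100 CPM of Xist and Xist as a covariate.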

Additional observations from a re-analysis of the deposited data

Results flagged for a closer look

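In each group of 6 pools, the highest or lowest value of a forkhead gene was compared with its gap to the nearest other pool by Dixon's criterion. Of 58 groups examined, 6 held a pool that stood apart, and chance alone gives about 1 in 20. Foxl2 in control replicate 1, at 47.2 CPM, stood above the other control pools at 0.23 to 0.53 CPM. In the same library Foxn2, at 48.3 CPM, stood above 35.7 to 38.4 CPM. Foxo1 in control replicate 5, at 78.1 CPM, stood below 108.1 to 123.5 CPM, and Foxo6 in the same library, at 9.87 CPM, below 14.7 to 17.2 CPM. Foxj2 in cKO replicate 3, at 67.1 CPM, stood above 45.1 to 50.2 CPM. Foxj1 in cKO replicate 2, at 0.661 CPM, stood below 1.19 to 1.46 CPM. Control replicate 5 also had the lowest sum over the forkhead genes without Foxl2, 731 CPM against 890 to 1051 CPM in the other control pools.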

How the results depend on the processing

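Forkhead genes called lower numbered 1 and higher 1. DESeq2 gave 4 lower, limma-voom 3 lower and 0 higher, and limma-voom with quality weights 4 lower and 2 higher. No filter on low counts gave 0 higher, and the 8 libraries with Xist under 100 CPM 2 higher. Leaving out 1 library gave 1 to 3 lower and 0 to 3 higher, with 3 of each without control replicate 1. Over all genes, 756 were lower and 510 higher. DESeq2 gave 878 higher, limma-voom with quality weights 1992 lower and 1868 higher, and leaving out 1 library 497 to 1635 lower and 319 to 1471 higher. The lowest counts came without cKO replicate 4 and the highest without control replicate 1. Lower calls were 59.7% of all calls in 12 libraries and 48.0% in the 8. Of the list genes, quality weights called 43 lower and 36 higher, and leaving out 1 library 14 to 42 lower and 8 to 31 higher, again highest without control replicate 1. The causes were not tested.

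Same-number pools showed little sign of pairing. Of 6 such pairs, 2 had correlated deviations over 0.1 (range -0.33 to 0.24), and 1 of 12 libraries correlated best with its own number. The libraries with high Xist were part of this check, so it cannot show whether same-number pools shared a litter. With a replicate block, Foxq1 (-0.65) kept its call, Foxs1 (0.41, adjusted p = 0.0507) did not, so that 0 forkhead genes were higher, 539 genes were lower and 392 higher over all genes, and Nr2f2 had -1.26.

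Some log2 fold changes turned direction under an alternative, and none of these genes passed the test in 12 libraries. Foxl2os, at -0.76 in 12 libraries, had 3.20 without control replicate 1. In limma-voom, Foxa1 gave -0.00479, Foxl1 -0.096 and Foxl2os 1.22. With quality weights, Foxa1 gave -0.21, Foxj1 -0.036, Foxk2 -0.000947, Foxo6 -0.018, Foxn3 0.026, Foxp4 0.018 and Foxl2os 1.74. With the replicate block, Foxa1 gave -0.00702 and Foxl2os 1.74. In the 8 libraries, Foxa1 gave -0.38, Foxj1 -0.076, Foxm1 0.070, Foxn3 0.068, Foxo4 0.042, Foxp4 0.22 and Foxl2os 0.96. With Xist as a covariate, Foxa1 gave -0.065, Foxj1 -0.081, Foxp1 -0.017, Foxo4 0.019 and Foxp4 0.00552. Leaving out 1 library gave log2 fold changes on both sides of 0 for Foxl2 (-0.31 to 4.49), Foxl2os (-1.06 to 3.20), Foxa1 (-0.060 to 0.25), Foxd3 (-0.0024 to 0.26), Foxj1 (-0.058 to 0.18), Foxk1 (-0.0052 to 0.19), Foxk2 (-0.00932 to 0.087), Foxl1 (-0.24 to 0.16), Foxm1 (-0.080 to 0.024), Foxo4 (-0.032 to 0.017), Foxo6 (-0.024 to 0.11), Foxp1 (-0.025 to 0.099) and Foxp4 (-0.10 to 0.045).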
